A study of Mus musculus with 5 samples.

Results

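The Smad family was described in epithelial tumour cells of the mouse prostate from 2 genotypes, in both of which Smad4, the common member of the family, is deleted. Its 8 genes (Smad1, Smad2, Smad3, Smad4, Smad5, Smad6, Smad7 and Smad9) were represented by every probe set whose only gene symbol in the platform annotation is one of them. These were 18 of the 45037 probe sets on the array, and 8 of the 18193 genes that had a probe set with a single symbol. A probe set is a group of short array probes that together give 1 signal.

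The nTKO tumours (2 mice, 31.43 and 16 weeks old) and the nDKO tumours (3 mice, 15.86, 10.71 and 10.71 weeks old) were of strain C57BL/6. Both genotypes carry floxed alleles, Smad4L/L among them, that are deleted under the prostate-specific Probasin driver, and nTKO mice carry Pygo2L/L as well. Probasin acts in prostate epithelium, so that a cell of any other kind in a sample would keep these genes. No array with intact Smad4 was analysed here, so the comparison of nTKO with nDKO asks whether the transcripts of the family differ when Pygo2, a co-activator of Wnt signalling, is lost on top of Smad4. Tumours were dissociated, epithelial cells were collected with EpCAM beads, and the RNA of each mouse was hybridised to 1 single-channel Affymetrix array. All values are log2 signals, so a difference of 1 is a doubling, and genotypes are compared within a probe set. Levels of different probe sets are not compared with each other, and a probe set is called dim only where it lies below the median of the array.

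Smad proteins carry signals of the TGF-beta superfamily from the cell surface to the nucleus. Receptors for TGF-beta and activin phosphorylate Smad2 and Smad3, and receptors for bone morphogenetic proteins (BMPs) phosphorylate Smad1, Smad5 and Smad9. The phosphorylated proteins join Smad4 and bind DNA at short Smad boxes, while Smad6 and Smad7 are made in response to the signal and block it. In prostate epithelium the pathway is known for restraining growth.

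Smad proteins bind DNA as well as being encoded by genes that can hold Smad boxes, and the windows around the starts of member genes are therefore shown for the inhibitory member with a palindromic box and for the member whose 2 groups of arrays did not overlap. RefSeq sequences (GRCm38.p6) covering 250 bases before to 50 bases after the gene start were matched for 5 of the 8 genes, in 7 windows, and 4 motifs were searched on both strands. The palindrome GTCTAGAC was found in 1 member, Smad6, where it begins 4 bases before the gene start. It occurs in 0.213% of the 32851 windows of the same length in the genome, or 70 windows. The window of Smad6 is chr9:64022010-64022309 on the minus strand, with the palindrome in capitals. The BMP-related element GGCGCC, present in 11.9% of all windows, lies 19 bases before 1 of the annotated starts of Smad5, in the window chr13:56702802-56703101 on the plus strand, where it is in capitals.
Smad6: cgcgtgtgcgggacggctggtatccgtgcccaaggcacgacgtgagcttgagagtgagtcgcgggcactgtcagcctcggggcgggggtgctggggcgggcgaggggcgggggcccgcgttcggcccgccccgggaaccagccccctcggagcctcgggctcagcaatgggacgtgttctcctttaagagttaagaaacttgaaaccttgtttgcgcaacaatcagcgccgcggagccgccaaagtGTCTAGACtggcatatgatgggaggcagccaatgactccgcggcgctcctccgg
Smad5: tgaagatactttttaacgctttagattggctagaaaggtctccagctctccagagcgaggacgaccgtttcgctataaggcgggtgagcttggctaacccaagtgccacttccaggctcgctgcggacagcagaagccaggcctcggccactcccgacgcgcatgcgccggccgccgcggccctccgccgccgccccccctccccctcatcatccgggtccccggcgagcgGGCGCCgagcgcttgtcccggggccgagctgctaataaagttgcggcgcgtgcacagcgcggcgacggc
The same element begins 51 bases before the start of Smad9. The single box CAGAC was found in 1 further window of Smad5, 21 bases before its start, against 49.6% of all windows. The tandem box AGACAGAC (GTCTGTCT on the other strand), which contains the single box, is in 1.88% of all windows and was not in these 7. A match describes letters in a window and is not a measured binding site.

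Of the 18 Smad probe sets, none differed between nTKO and nDKO cells at a limma adjusted p under 0.05, and the adjusted p-values lay between 0.799 and 1. The background was the same, with 0% of all 45037 probe sets called and a smallest limma adjusted p of 0.799. At an unadjusted p under 0.05, 0 of the 18 and 3.8% of all probe sets (1710) were counted. Both nTKO arrays lay above every nDKO array for 0 of the 18 Smad probe sets, against 7.02% of all probe sets, and below every nDKO array for 1 of them, a probe set of Smad5, against 5.17% of all. The mean was higher in nTKO cells for 10 Smad probe sets, lower for 5 and equal for 3. The median log2 difference was 0.013 over the Smad probe sets and 0.017 over all probe sets, and the median size of the difference, sign left out, was 0.069 and 0.083. With 2 mice against 3, the smallest two-sided p an exact permutation test can give is 0.1, and 17 of the 18 probe sets had an exact p above it. Pygo2 itself, the gene that separates the genotypes, had 7.30 and 6.35 in nTKO cells, against 8.65, 8.62 and 8.72 in nDKO cells, a log2 difference of -1.84 (SE 0.31, limma adjusted p = 0.799).

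**Figure D1:**
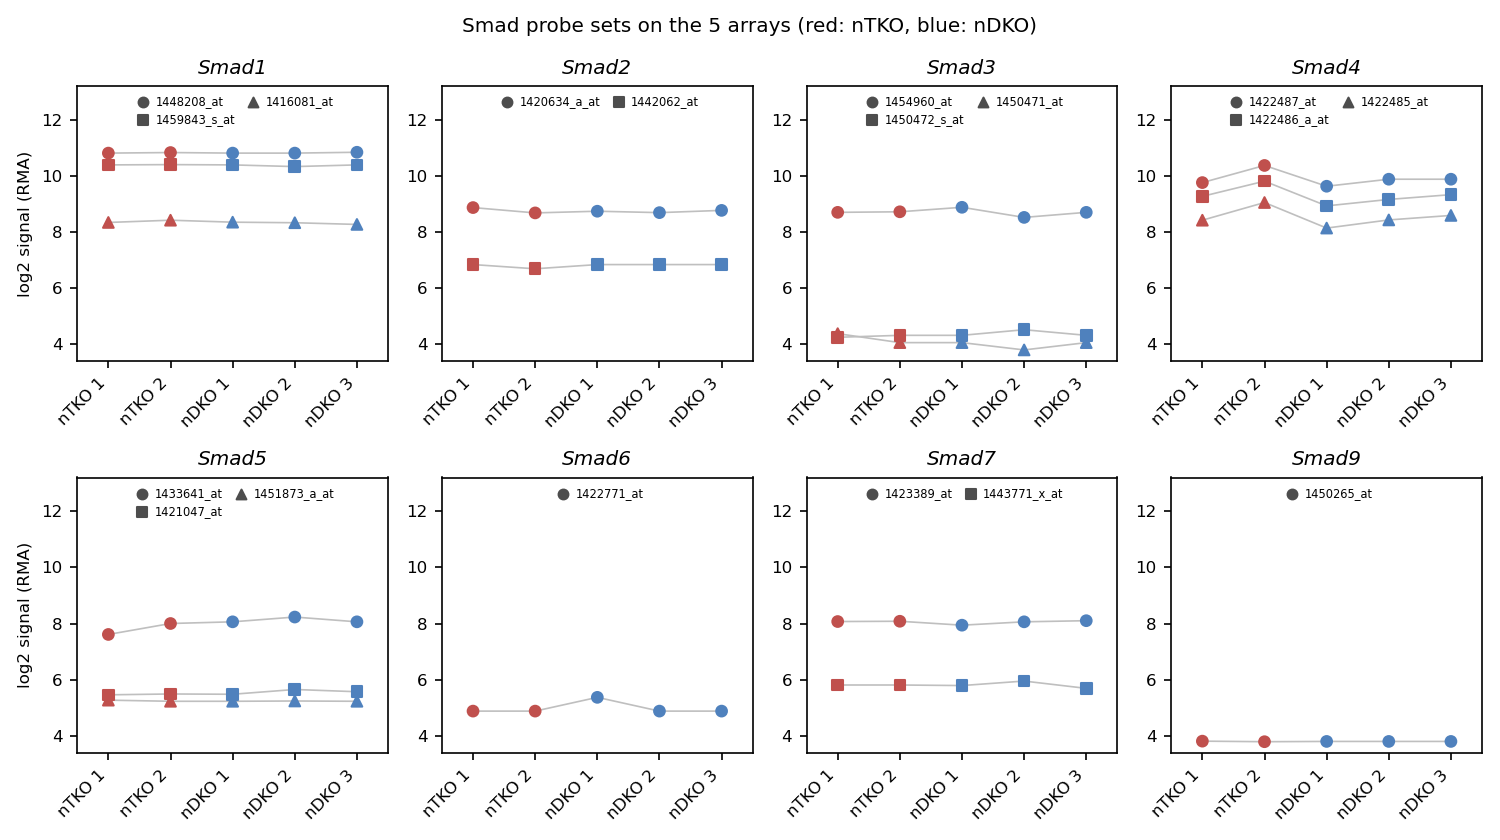
Log2 RMA signal (y axis) of each Smad probe set on the 2 nTKO arrays (red) and 3 nDKO arrays (blue), 1 panel per gene and 1 marker shape per probe set, with thin lines joining the values of a probe set. The 3 Smad4 probe sets share a peak at nTKO 2 and a low at nDKO 1, Smad5 1433641_at is lowest in nTKO 1, and most other lines are nearly flat. Heights of different probe sets are not comparable levels of their genes.

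Smad4, the partner that every receptor-activated Smad joins, kept a signal on all 5 arrays of both genotypes. Its 3 probe sets, all designed from 1 source record, were above the array medians of 4.94 to 4.98 on every array. Where these probes lie relative to the deleted part of the gene is not given in the sources used here, so the signal is no check of the deletion. The probe set with the highest mean, 1422487_at, had 9.76 and 10.37 in nTKO cells, against 9.63, 9.88 and 9.88 in nDKO cells. On the second, 1422486_a_at, the values were 9.27 and 9.81 in nTKO cells, against 8.93, 9.16 and 9.33 in nDKO cells. The third, 1422485_at, gave 8.42 and 9.05 in nTKO cells, against 8.14, 8.43 and 8.59 in nDKO cells.

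All 3 Smad4 probe sets were highest in nTKO 2 and lowest in nDKO 1, and in each the other nTKO mouse lay among the nDKO mice. The gap between nTKO 2 and the next array was 0.49, 0.48 and 0.46 in the order above, which is 1.40-fold, 1.39-fold and 1.38-fold. From the lowest to the highest array the 3 probe sets spanned 0.74, 0.88 and 0.91, or 1.67-fold to 1.88-fold. Those ranges sat at the 89.4th, 92.7th and 93.2nd percentile of all probe sets. Probe sets of 1 gene measure the same 5 RNAs, so their shared order is not a replicate of it. Rescaled arrays kept the top position of nTKO 2, with gaps of 0.498 to 0.522 after quantile normalization and 0.48 to 0.50 after median centring.

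The genotype means of Smad4 were within the spread of the mice. On 1422487_at the mean was 10.07 ± 0.43 (SD, n = 2) in nTKO cells and 9.80 ± 0.14 (SD, n = 3) in nDKO cells. The log2 difference was 0.27 (SE 0.22, 95% interval -0.33 to 0.86, limma adjusted p = 0.802). For 1422486_a_at it was 0.40 (95% interval -0.19 to 0.99, limma adjusted p = 0.799) and for 1422485_at 0.35 (95% interval -0.33 to 1.03, limma adjusted p = 0.799). The 3 differences were smaller without nTKO 2 and, to a lesser degree, without nDKO 1. Without nTKO 2 they were -0.037, 0.13 and 0.033, and without nDKO 1 they were 0.185, 0.295 and 0.225. Without nTKO 1 they were 0.57, 0.67 and 0.66, in the same order of probe sets. Between the mice of similar age, nTKO 2 and nDKO 1, they were 0.74, 0.88 and 0.91 with no test. These 2 mice are the highest and the lowest array of each Smad4 probe set, so the values repeat the ranges above. Their summed squamous markers, described below, also differed, at 11.61 in nTKO 2 and 14.32 in nDKO 1. With log2 age as a covariate the Smad4 differences were 0.77, 0.89 and 0.92 (limma adjusted p = 0.381, 0.383 and 0.381).

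**Figure D2:**
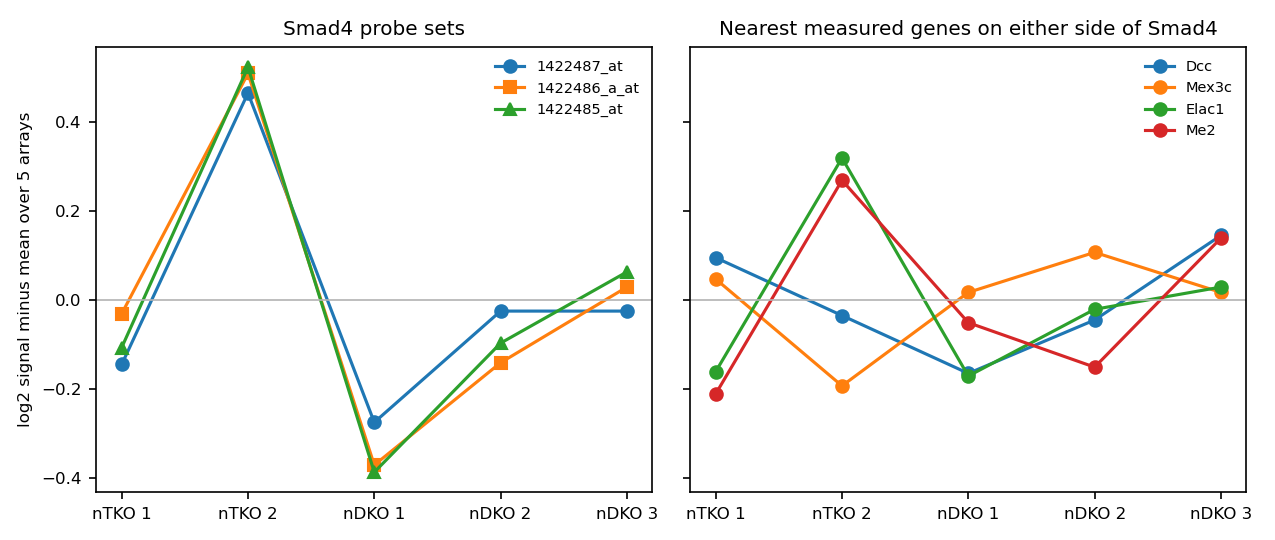
Log2 signal minus each probe set's own mean over the 5 arrays (y axis) by array, for the 3 Smad4 probe sets (left) and for the leading probe sets of the nearest measured genes on either side of Smad4 (right). The Smad4 lines nearly coincide and peak at nTKO 2, Elac1 and Me2 also peak there, and Mex3c is lowest there.

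The genes next to Smad4 in RefSeq gene order, chosen after their values were seen, did not all share its pattern. Elac1, a tRNA-processing enzyme gene directly beside Smad4, had 6.38 and 6.86 in nTKO cells, against 6.37, 6.52 and 6.57 in nDKO cells, and was highest in nTKO 2 by 0.29. Me2, the mitochondrial malic enzyme and the next gene on that side, had 5.84 and 6.32 in nTKO cells, against 6.00, 5.90 and 6.19 in nDKO cells, with nTKO 2 highest by 0.13. On the other side Mex3c, an RNA-binding ubiquitin ligase, had 9.73 and 9.49 in nTKO cells, against 9.70, 9.79 and 9.70 in nDKO cells, so that nTKO 2 was its lowest array. Beyond it Dcc, the netrin receptor, had 5.24 and 5.11 in nTKO cells, against 4.98, 5.10 and 5.29 in nDKO cells. None of these 4 differed by genotype, with limma adjusted p-values of 0.802 to 0.959.

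Among all other genes, predicted ones left out, the 5 whose values ran most like those of Smad4 over the 5 arrays were Rnf157, Vmn1r15, Kcne4, Jcad and Nek5. Likeness was the root-mean-square difference of values centred on each gene's own mean, which was 0.032 to 0.057 for these genes, where the deviation of Smad4 from its own mean was 0.251. With 5 arrays and 18193 genes such likeness is a description of these arrays only.

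Smad5, a receptor-activated Smad of the BMP branch, held the 1 probe set whose groups did not overlap. Its probe set with the highest mean, 1433641_at, had 7.61 and 8.0 in nTKO cells, against 8.06, 8.23 and 8.06 in nDKO cells. The means were 7.81 ± 0.28 (SD, n = 2) in nTKO cells and 8.12 ± 0.098 (SD, n = 3) in nDKO cells, a log2 difference of -0.31 (SE 0.15, 95% interval -0.71 to 0.086, limma adjusted p = 0.799). The exact permutation p was 0.1, the smallest this design allows. Both nTKO mice were below every nDKO mouse, nTKO 2 by less than 0.1 and nTKO 1 further below. Without nTKO 1 the difference was -0.12, without nTKO 2 it was -0.51 (limma adjusted p = 0.189), and between the mice of similar age it was -0.06. A fit that included age (log2 scale) gave -0.029 (limma adjusted p = 1).

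The other 2 Smad5 probe sets, from other source records, did not repeat that size. On 1421047_at the values were 5.46 and 5.49 in nTKO cells, against 5.48, 5.65 and 5.57 in nDKO cells, a difference of -0.092 (SE 0.067). On 1451873_a_at they were 5.27 and 5.23 in nTKO cells, against 5.23, 5.24 and 5.23 in nDKO cells, a difference of 0.017 (SE 0.04). After quantile normalization or median centring 1421047_at also had both nTKO arrays below every nDKO array, so that 2 of the 18 Smad probe sets did, against 10.7% of all probe sets after quantile normalization and 7.36% after median centring. Of all probe sets whose groups did not overlap, 57.6% were higher in nTKO cells as deposited, 43.0% after quantile normalization and 49.3% after median centring.

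Smad1, another receptor-activated Smad of the BMP branch, was nearly flat. The probe set 1448208_at had 10.81 and 10.83 in nTKO cells, against 10.81, 10.81 and 10.84 in nDKO cells, with equal means and a 95% interval of -0.13 to 0.13 for the log2 difference. On 1459843_s_at the values were 10.39 and 10.40 in nTKO cells, against 10.39, 10.33 and 10.39 in nDKO cells, a difference of 0.025 (SE 0.053). The third, 1416081_at, had 8.34 and 8.42 in nTKO cells, against 8.35, 8.33 and 8.27 in nDKO cells, a difference of 0.063 (SE 0.06). The ranges over the 5 arrays were 0.03 to 0.15, so the mouse that was highest for Smad4 did not stand apart for Smad1.

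Smad9, the remaining BMP-activated member, was read at 3.81 and 3.79 in nTKO cells, against 3.80 on each of the 3 nDKO arrays. Its 1 probe set, 1450265_at, was below the array median on all 5 arrays. The 95% interval of the log2 difference was -0.080 to 0.080, while the 5 arrays spanned 0.02. That interval also draws on the spread of other probe sets through limma's prior, and it describes a dim probe set only.

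Smad2 and Smad3, the TGF-beta and activin branch, were also close between genotypes on the probe sets with their highest means. For Smad2, 1420634_a_at had 8.87 and 8.68 in nTKO cells, against 8.74, 8.69 and 8.77 in nDKO cells, a log2 difference of 0.042 (SE 0.081, 95% interval -0.18 to 0.26). The 2 nTKO mice were the highest and the lowest of the 5. The other Smad2 probe set, 1442062_at, had 6.84 and 6.69 in nTKO cells, against 6.84 in each of the 3 nDKO samples, a difference of -0.075 (SE 0.065), and its lowest array was again nTKO 2.

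For Smad3, 1454960_at had 8.70 and 8.72 in nTKO cells, against 8.88, 8.52 and 8.70 in nDKO cells, a log2 difference of 0.01 (SE 0.12, 95% interval -0.33 to 0.35). Its highest and lowest arrays were both nDKO, so the nDKO mice spanned the nTKO mice. The 2 dim Smad3 probe sets were below the array median on all 5 arrays and pointed in opposite directions. Of these, 1450472_s_at had 4.25 and 4.32 in nTKO cells, against 4.32, 4.52 and 4.32 in nDKO cells, a difference of -0.10 (SE 0.083). The other, 1450471_at, had 4.38 and 4.06 in nTKO cells, against 4.06, 3.80 and 4.06 in nDKO cells, a difference of 0.25 (SE 0.14) that was 0.087 without nTKO 1.

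The inhibitory members, Smad6 and Smad7, differed between genotypes by less than the spread between mice. Smad6, which restrains mainly the BMP branch and whose window holds the palindromic box shown above, had 4.88 and 4.88 in nTKO cells, against 5.37, 4.88 and 4.88 in nDKO cells on its 1 probe set, 1422771_at. The value was the same on 4 arrays, which were below the array median, and nDKO 1 alone stood above them by 0.49. The log2 difference was -0.16 (SE 0.18, 95% interval -0.66 to 0.33) and was 0 without nDKO 1.

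Smad7, a feedback inhibitor of the TGF-beta receptors and a well-known target of Smad signalling, had 8.07 and 8.08 in nTKO cells, against 7.94, 8.06 and 8.10 in nDKO cells on 1423389_at. The difference was 0.042 (SE 0.071, 95% interval -0.15 to 0.24), and the nTKO mice lay inside the span of the nDKO mice. On 1443771_x_at the values were 5.81 and 5.81 in nTKO cells, against 5.79, 5.95 and 5.69 in nDKO cells, with equal means.

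**Figure D3:**
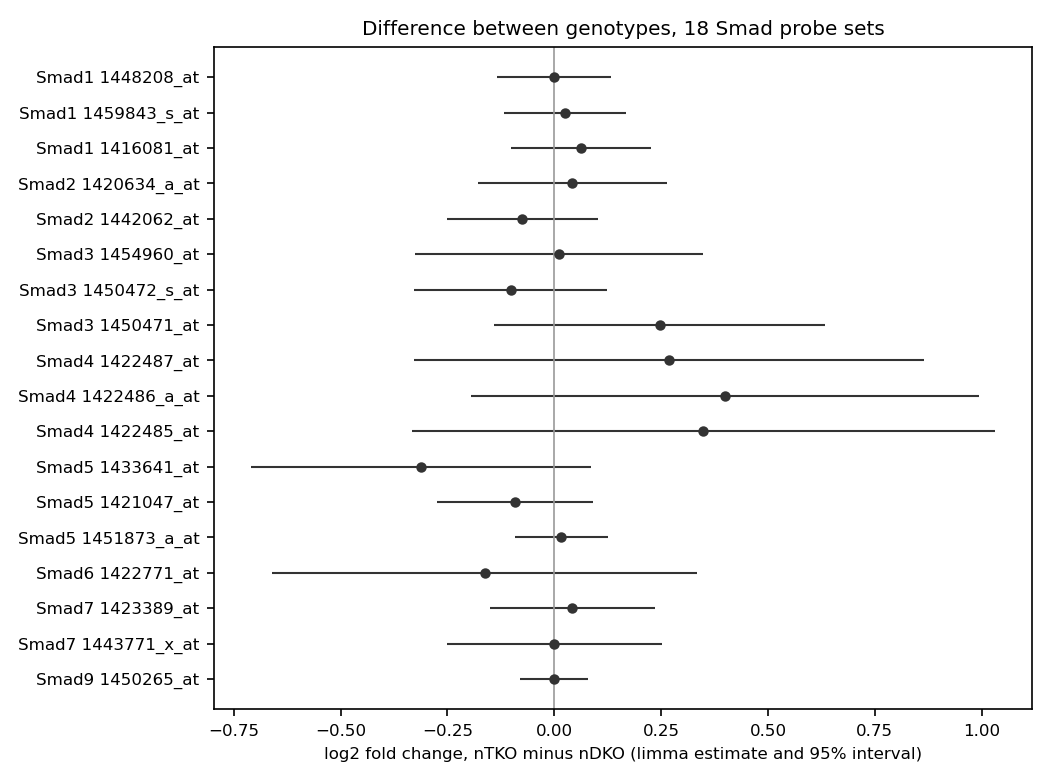
Log2 fold change, nTKO minus nDKO (x axis), of the 18 Smad probe sets (rows), with points for limma's estimate and bars for its 95% interval. Every interval includes 0, and the widest are those of the 3 Smad4 probe sets, Smad5 1433641_at and Smad6.

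The 3 Smad4 probe sets had the 3 widest ranges over the 5 mice of the 18 Smad probe sets. The median range from the lowest to the highest array was 0.88 over its 3 probe sets and 0.19 over the other 15 Smad probe sets, against 0.30 over all probe sets. Of the 18, 11 had a range under the median of all probe sets. The next widest after Smad4 were Smad5 1433641_at at 0.62, Smad3 1450471_at at 0.58 and Smad6 at 0.49. The same value stood on at least 3 of the 5 arrays for 8 of the 18 Smad probe sets (44.4%), against 30.8% of all probe sets. Of these 8, 4 were above the array median on all arrays, 2 of Smad1 and 1 each of Smad2 and Smad5, and the other 4 were below it on at least 4 arrays.

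**Figure D4:**
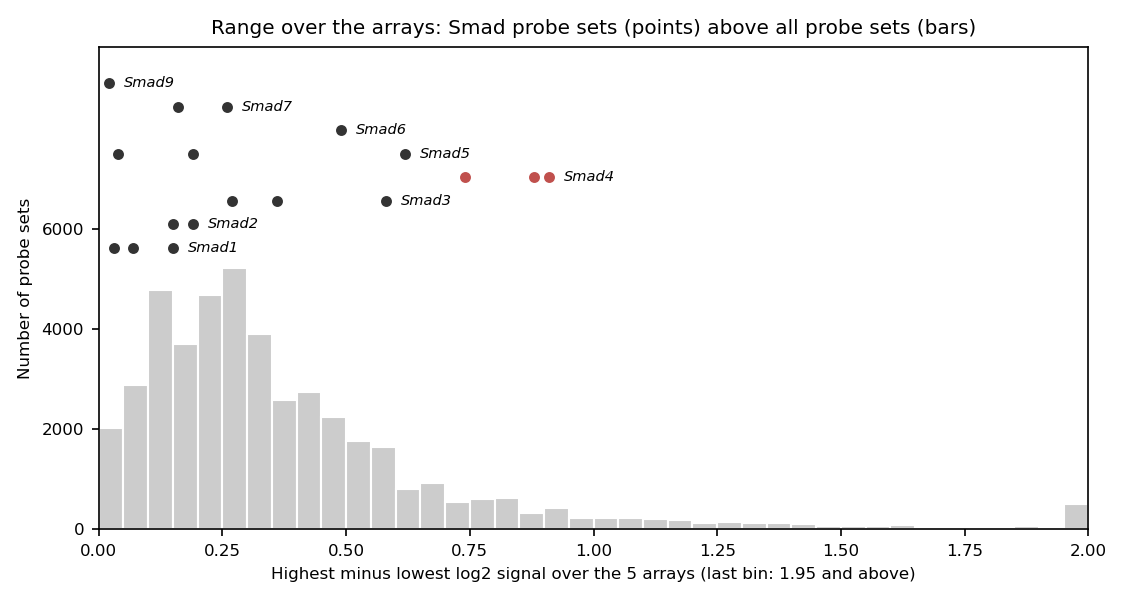
Highest minus lowest log2 signal over the 5 arrays (x axis) for the 18 Smad probe sets, 1 row of points per gene above a histogram of all 45037 probe sets (y axis, number of probe sets). The 3 Smad4 points (red) lie at 0.74 to 0.91, to the right of the other 15.

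Markers of the cells in the samples were set beside these values, as summed signals on the log2 scale. Epithelial markers (6 of 6 measured) summed to 15.34 and 15.72 in nTKO cells, against 15.33, 15.68 and 15.64 in nDKO cells, with the highest sum in nTKO 2 and the lowest in nDKO 1. Of the 6 genes, 2 (Krt8 and Krt18) had that order at both ends, which is the order of Smad4. Epcam was highest in nDKO 2, and Cdh1, Krt19 and Cldn4 were lowest in nTKO 1. Among markers of other cell types, Lum (fibroblasts, 1 of 6) and Tagln (smooth muscle, 1 of 4) also had the order of Smad4. In bulk samples fewer cells of a type and less RNA per cell cannot be told apart. Squamous markers (6 of 6) had a high sum in 1 mouse of each genotype, with 13.74 and 11.61 in nTKO cells, against 14.32, 10.76 and 10.92 in nDKO cells. Krt1, Krt10, Krt13 and Ivl were high in both nTKO 1 and nDKO 1. Lor was 5.06 in both nTKO mice, and Sprr1a was 11.17 in nTKO 1 and 11.47 in nTKO 2. Basal markers (4 of 4) had high sums in the same mice, with 14.25 and 13.23 in nTKO cells, against 14.88, 13.89 and 13.89 in nDKO cells. Of these genes Krt15 was not high in nTKO 1, at 13.29 against 13.41 in nDKO 2 and 13.52 in nDKO 3. Leaving out both of those mice, nDKO 1 and nTKO 1, gave Smad4 differences of 0.49, 0.565 and 0.54 and a Smad5 1433641_at difference of -0.145.

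Markers of other cell types also differed between mice. Leukocyte markers (7 of 8) summed to 14.02 and 10.50 in nTKO cells, against 11.88, 11.07 and 12.02 in nDKO cells. The sum is dominated by S100a8 and S100a9 except in nTKO 2, where Csf1r was highest. In 3 of the 7 genes (S100a8, S100a9 and Cd68) nTKO 2 was the lowest array. All 7 were above the array median on every array, with Ptprc at 6.87 to 8.84 and Csf1r at 8.24 to 9.96. Fibroblast markers (6 of 6) summed to 7.79 and 9.75 in nTKO cells, against 8.85, 9.62 and 9.32 in nDKO cells. That sum follows Dcn, which had 6.41 and 9.52 in nTKO cells, against 7.87, 9.39 and 9.03 in nDKO cells. The median of the 6 genes stayed between 4.495 and 4.73. Col3a1, Lum and Pdgfra were below the array median on all arrays, and Col1a2, Dcn and Fbln1 were above it. Endothelial markers (7 of 7) summed to 6.46 to 6.69, with 6 of the 7 below the array median on all arrays, and smooth muscle markers (4 of 4) to 7.94 to 8.45, with Myh11 and Cnn1 below it. Seminal vesicle markers (5 of 5) summed to 14.85 and 14.60 in nTKO cells, against 13.05, 15.00 and 15.70 in nDKO cells. The part of these markers, and of age, in the Smad4 and Smad5 values was not tested.

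Around the Smads, 67 of 71 listed genes of the TGF-beta and BMP pathway were measured, with 1 probe set per gene, and 4 were not analysed here. None was called at a limma adjusted p under 0.05, as for 0% of all genes, and 1 had an unadjusted p under 0.05, against 3.74% of all genes. Both nTKO arrays lay above every nDKO array for 8 of the 67, against 8.13% of all 18193 genes, and below for 5, against 4.71%. The median log2 difference was 0.037 over the list and 0.028 over all genes, and 39 of the 67 were higher in nTKO cells, against 60.0% of all genes. The count past the unadjusted threshold depended on the mice, with 13 without nTKO 2 (16.0% of all genes), 5 without nTKO 1 (8.33% of all genes) and 18 without both nDKO 1 and nTKO 1 (16.4% of all genes).

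The receptors, which phosphorylate the Smads, had higher means in nTKO cells for 9 of 13 (median 0.10), among them the type I receptors Tgfbr1 at 0.10 and Bmpr1a at 0.13 and the type II receptor Tgfbr2 at 0.25. The type I receptor Acvr1 was at -0.28 and the BMP type II receptor Bmpr2 at -0.08, and the median of the 13 was 0.02 without nDKO 1 and 0.027 without nTKO 1. Of the 10 ligands measured, 4 were higher and 5 lower (median -0.016), with Inhba, an activin subunit, at -0.20, Gdf11 at 0.12 and Tgfb1 at -0.37. Regulators of Smads had 12 of 18 higher (median 0.03). The 1 gene past the unadjusted threshold was Bambi, a pseudoreceptor that dampens the signal, with 6.27 and 6.39 in nTKO cells, against 5.82, 6.06 and 6.09 in nDKO cells, a log2 difference of 0.34 (SE 0.11, limma adjusted p = 0.799). The co-repressor Tgif1 was at 0.26 and the phosphatase Ppm1a at 0.21, both with nTKO mice above every nDKO mouse. The co-repressor Ski was at -0.10, with nTKO mice below every nDKO mouse, and the co-repressor Skil at -0.075. The ubiquitin ligases Smurf1 and Smurf2 were at 0.055 and 0.0017. Of the 18 regulators, 3 lay above every nDKO mouse and 2 below, against 8.13% and 4.71% of all genes.

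Partners of Smads on DNA had 4 of 8 higher (median 0.018). Runx1, a transcription factor that binds Smads, had 8.96 and 8.46 in nTKO cells, against 9.84, 9.09 and 9.0 in nDKO cells, a log2 difference of -0.60 (SE 0.33, limma adjusted p = 0.799). In the same list the Mediator subunit Med15 was at 0.105 and the DNA-binding partner Foxh1 at 0.052. Known targets of TGF-beta had 4 of 11 higher (median -0.075), with the matrix protein gene Ccn2 at 0.44, the feedback gene Pmepa1 at -0.17, the cyclin gene Ccnd1 at -0.165 and the cell cycle inhibitor gene Cdkn1a at -0.47. The direction of that median depended on single mice, since it was -0.33 without nTKO 1, 0.17 without nTKO 2 and 0.075 without nDKO 1. Cdkn1a had 10.54 and 9.15 in nTKO cells, against 10.92, 9.86 and 10.16 in nDKO cells (SE 0.56), so only nTKO 2 lay below the nDKO mice. Known BMP targets had 7 of 10 higher (median 0.096), with Id1, Id2 and Id3, inhibitors of helix-loop-helix factors, at -0.08, 0.26 and 0.14 and the repressor gene Hey1 at 0.445. Hey1 had 6.97 and 5.98 in nTKO cells, against 5.95, 6.08 and 6.06 in nDKO cells (SE 0.32), so only nTKO 1 lay above the nDKO mice. Leaving out single mice moved the medians of the other lists too. They lay between -0.067 and 0.025 for ligands and between -0.04 and 0.093 for regulators. For partners they lay between -0.045 and 0.0625, and for BMP targets between -0.02 and 0.18. The lists describe the surroundings of the family, and none of their counts was tested as a set.

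**Figure D5:**
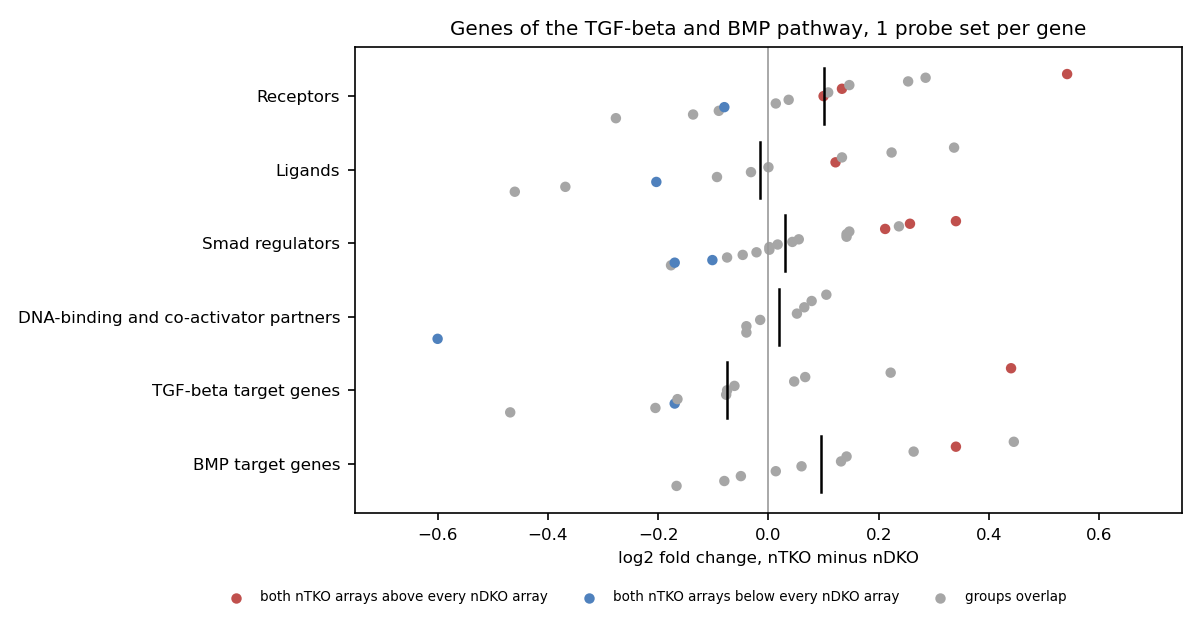
Log2 fold change, nTKO minus nDKO (x axis), of each measured gene in 6 lists of the TGF-beta and BMP pathway (rows), with black bars at the list medians. Genes whose 2 nTKO arrays lie above every nDKO array are red, those below are blue and the rest grey, and the medians lie between -0.075 and 0.10.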

How the data were processed

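Expression was measured in 5 mice, 2 nTKO and 3 nDKO, 1 array each. The deposited values are log2 signals, per the submitters' processing notes the product of RMA and of the Transcriptome Analysis Console. Versions and the genome build are not given in the sources used here. Quantile normalization within RMA hides any shift common to all transcripts. In the platform annotation 34945 of 45037 probe sets had 1 symbol, 932 several and 9160 none. Array medians were 4.94 to 4.98 on the log2 scale, and the number of arrays limits the precision.

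All probe sets were fitted together with limma 3.58.1 in R 4.3.3 (lmFit, and eBayes with an intensity trend), with no filter or covariate. P-values were two-sided and adjusted by Benjamini-Hochberg over all 45037 probe sets, with a threshold of 0.05. There were 3 residual degrees of freedom and 1.18 from the prior. The code was tested on simulated data. The labels give separate animals, so p-values rest on the spread between mice, moderated by a prior drawn from all probe sets. In counts of genes, a gene was its single-symbol probe set with the highest mean.

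Every Smad probe set is described, Pygo2 is given as the targeted gene, and pathway genes are named by smallest p, up to 4 per list, or from a short list given whatever their values. Of each list the 3 with the smallest p are printed. The members and lists were chosen with earlier results of these data known. Alternatives to the normalization were quantile normalization and median centring. Alternatives to the fit were no trend, a robust prior, weights per array, an age term (log2), a replicate block and 1 probe set per gene. A filter kept probe sets at or above a level of 4.97, gene lists were recomputed with the mean of a gene's probe sets, each mouse was left out, and so were nDKO 1 and nTKO 1 together. The 2 mice of similar age gave a difference with no test. Some items, a further floxed allele that both genotypes share among them, are not reported here.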

Additional observations from a re-analysis of the deposited data

How the results depend on the processing

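No Smad probe set, no pathway gene and no other probe set had a limma adjusted p under 0.05 in any alternative. The lowest adjusted p of a Smad probe set was 0.142, for Smad4 1422487_at without both nDKO 1 and nTKO 1. Of 257 refitted Smad differences, 10 changed sign (sizes under 0.005 not counted) and 33 moved by at least 1 pooled SD of the replicates, 13 of these with log2 age, 6 on leaving out nTKO 1, 6 on leaving out nTKO 2 and 5 on leaving out nDKO 1 together with nTKO 1. Between the mice of similar age 14 of 18 moved that far. With log2 age as a covariate the differences with a changed sign were -0.081 for Smad2 1420634_a_at, -0.11 for Smad3 1454960_at, -0.015 for Smad3 1450471_at and -0.0058 for Smad5 1451873_a_at. Without both nDKO 1 and nTKO 1 they were -0.05 for Smad2 1420634_a_at and -0.005 for Smad5 1451873_a_at. Leaving out each mouse in turn gave -0.053 to 0.14 for Smad2 1420634_a_at, -0.08 to 0.10 for Smad3 1454960_at, -0.037 to 0.57 for Smad4 1422487_at and -0.005 to 0.075 for Smad7 1423389_at.

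Probe sets with an unadjusted p under 0.05 numbered 1710 in the reported fit, 990 of 22527 above the median level, 4091 with log2 age, 689 of 18193 with 1 probe set per gene and 7387 without both mice. Leaving out single mice gave 1171 to 7948, with 4223 without nTKO 1 and 7948 without nTKO 2. Smad probe sets past it numbered 0 in the reported fit, 3 with log2 age (all of Smad4, against 9.08% of all probe sets), 2 without both mice (against 16.4%) and 0 to 2 without single mice, the most without nTKO 1 (against 9.38%). With the replicate number as a block 1 Smad probe set passed it, Smad3 1450471_at, against 5.09% of all probe sets (2294), and the Smad4 1422487_at difference was 0.31. Pathway genes past it numbered 11 with log2 age (10.4% of all genes) and 8 with the replicate block (4.9964% of all genes). The mice share only a number, and with that block nDKO 3 carries no information. Same-numbered deviations correlated at 0.377 and 0.311 over probe sets, and those of nTKO 2 and nDKO 3 at 0.244. Deviations of 2 nTKO mice from their mean mirror each other, so these values are no test of a pairing. The cause of these shifts was not tested, apart from the fewer probe sets or mice in a setting. With 2 nTKO mice, 1 of them 31.43 weeks old, age and genotype cannot be told apart in full, and the signal of Smad9 and of 2 Smad3 probe sets was below the array median on all arrays.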
